A study of Mus musculus with 31 samples.

Results

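The clustered histone genes encode the linker histone H1 and the core histones H2A, H2B, H3 and H4, and most lie in gene clusters on chromosomes 13 and 3 of the mouse genome. They were taken as the genes with a clustered histone symbol in the count table of the conditioned-media experiment and were carried to the other tables by Ensembl gene ID. The rule found 67 genes among 55487 in that table, and all 67 were present in the 2D and 3D table (56980 genes) and in the rescue table (56941 genes). They comprised 6 H1, 20 H2A, 17 H2B, 12 H3 and 12 H4 genes, 57 on chromosome 13 and 10 on chromosome 3. Of these, 64 were annotated as protein-coding and 3 as pseudogenes (H2ac14, H2ac5-ps and H2af-ps2). The pseudogene H2af-ps2 lies apart from the cluster: it starts at position 51202727 of chromosome 13 (GRCm38), whereas the other members there start between 21715763 and 23934462.

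The cells were Panc02, a murine pancreatic adenocarcinoma line, sequenced as 31 libraries in 3 experiments. In the first, Panc02 WT spheroids embedded in Matrigel received control medium (Ctrl), medium conditioned by untreated macrophages (M0-CM) or medium conditioned by macrophages given IFNγ and lipopolysaccharide (M1-CM), with 3 libraries each. In the second, WT and Cxcl5-/- cells were grown as a monolayer (2D) or as spheroids (3D) in culture media, with 3 libraries in each of the 4 groups. The third, called the rescue experiment here, held 3D cultures of WT cells (2 libraries), Cxcl5-/- cells (2), Cxcl5-/- cells with a stabilized mutant Hif1α (Hif1αOE, 3) and Cxcl5-/- cells with Myc overexpression (MycOE, 3). The knockout was made with 1 CRISPR guide and antibiotic selection, both overexpression lines carry the deletion too, and whether a line is a clone or a pool is not given in the sources used here. The labels give the line of the rescue samples under serially numbered Panc names, whereas the methods name Panc02. No label says that libraries of a group came from separate cultures, and the methods speak of biological replicates and independent experiments in general without naming the sequencing, so p-values measure the spread between these libraries, which may be technical. CXCL5 is a secreted chemokine, and its transcript stayed detectable in every Cxcl5-/- library. It was lower in Cxcl5-/- than in WT libraries of the rescue experiment (36.6 and 40.2 CPM against 64.2 and 67.7; CPM are counts scaled to library size with TMM factors), but higher in the 3 3D libraries labelled Cxcl5-/- (65.5, 40.9 and 45.4 CPM) than in 3D WT (28.5, 24.5 and 28.0). In 2D it was 45.6, 47.3 and 49.1 CPM in WT and 37.4, 32.7 and 32.8 in Cxcl5-/-. In 3D of the second experiment the transcript was thus not lower under the knockout label. The methods report a check of the knockout by immunoblot for CXCL5, and RNA counts do not measure protein. The transcript alone therefore does not decide the genotype, and the 3D knockout group of the second experiment is called the 3D libraries labelled Cxcl5-/- throughout.

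Replication-dependent histone genes are transcribed in S phase, when new DNA has to be wrapped into nucleosomes. The coactivator NPAT gathers their promoters into nuclear bodies, and their short, mostly intronless transcripts end in a conserved stem-loop in place of a poly(A) tail. SLBP binds that stem-loop, and the U7 snRNP, which contains LSM10 and LSM11, directs the cleavage that forms the end. The libraries were made from ribosomal RNA-depleted total RNA, a preparation that also keeps transcripts without a poly(A) tail.

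The stem-loop is shown because it is what sets these messages apart from other mRNA. The pattern, written as GG, any 2 bases, CTT, any base, T, any base, AG, any 2 bases and CC, was searched on the sense strand after the annotated stop codon in GENCODE M21 transcripts (GRCm38). Of 47 genes with at least 50 annotated bases after the stop codon, 43 held it. Among other protein-coding transcripts, searched over their whole length, 164 of 58728 (0.279%) held it. The sequence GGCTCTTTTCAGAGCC occurred in 24 of the 43, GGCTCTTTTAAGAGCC in 6 and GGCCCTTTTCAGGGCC in 6. The 4 genes without it were H2bc4, H2bc21, H2bc23 and H2bc24. The remaining genes have fewer annotated bases after a stop codon, or none, and were left out of this count. Among them, H1f1 (48 bases) and H3c13 (37) gave no match, and H1f5 has 0 such bases. In the following examples the capitals mark the stem-loop.
H1f2: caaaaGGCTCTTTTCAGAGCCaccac
H1f4: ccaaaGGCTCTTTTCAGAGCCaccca
H2ac4: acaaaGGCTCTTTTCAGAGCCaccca
H2bc14: acaaaGGCTCTTTTCAGAGCCactaa
H2bc3: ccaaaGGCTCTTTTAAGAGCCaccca
H3c3: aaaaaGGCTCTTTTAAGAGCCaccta
H4c8: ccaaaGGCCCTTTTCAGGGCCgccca
H4c14: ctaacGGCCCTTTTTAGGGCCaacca

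Promoters are shown because most of the genes were called in the same direction in some comparisons below. These are Cxcl5-/- against WT in 3D and each overexpression against Cxcl5-/-. RefSeq promoter entries (GRCm38.p6) matched 58 of the 67 genes with 59 entries, and the 250 bases before the start were searched on both strands. CCAAT was present in 83.1% of the histone entries against 33.8% of 32792 other promoters, and in all H1, H2A and H2B entries but in only 3 of 11 H4 entries. TATAAA was present in 47.5% against 12.3%. ATTTGCAT, the octamer, was present in 22.0% against 1.56%, in 6 of 17 H2A and 7 of 15 H2B entries and in no H1, H3 or H4 entry. AAACACA, known as the H1 box, was present in 5 of 6 H1 entries against 6.23% of other promoters. Several H2A and H2B genes lie head to head, so that their windows overlap. The following promoters, of H1f5 (chr13:21780626-21780875, minus strand), H2bc14 (chr13:21721794-21722043, plus strand) and H3c3 (chr13:23745522-23745771, minus strand), are printed with these motifs in capitals on either strand.
H1f5: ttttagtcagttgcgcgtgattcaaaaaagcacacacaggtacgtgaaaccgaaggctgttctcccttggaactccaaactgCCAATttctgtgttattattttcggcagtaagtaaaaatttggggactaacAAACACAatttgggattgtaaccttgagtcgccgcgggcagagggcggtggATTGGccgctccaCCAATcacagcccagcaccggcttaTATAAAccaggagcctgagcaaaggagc
H2bc14: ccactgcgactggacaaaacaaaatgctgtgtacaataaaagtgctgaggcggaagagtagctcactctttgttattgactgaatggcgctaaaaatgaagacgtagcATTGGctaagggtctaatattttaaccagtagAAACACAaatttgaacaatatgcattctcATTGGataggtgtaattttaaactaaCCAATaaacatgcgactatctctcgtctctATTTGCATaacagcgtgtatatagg
H3c3: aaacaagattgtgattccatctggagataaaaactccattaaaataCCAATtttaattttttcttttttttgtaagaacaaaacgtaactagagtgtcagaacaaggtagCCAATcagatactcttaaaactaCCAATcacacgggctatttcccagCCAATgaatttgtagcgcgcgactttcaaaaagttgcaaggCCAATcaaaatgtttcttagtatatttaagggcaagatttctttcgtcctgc

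Library totals ran from 41542533 to 78498230 counts. Many of the genes are near-identical: only 22 of the 67 had at least 75% of their 100-base windows found in no annotated transcript of another gene, a limit set after the data were seen, and H2ac18, H2ac19, H2bc18, H3c13 and H3c14 had 0% of such windows. Counts of those 5 genes switched between libraries of a group. H2ac19, for example, had 502, 25063 and 22964 counts in the 2D WT libraries and 7943, 0 and 0 in the 3D libraries labelled Cxcl5-/-. How the authors' counting split reads between these copies is not known, so their single-gene values are uncertain, and the summed level over all 67 genes is given first because it does not depend on a split between members. It can still depend on a split with other genes: all 282 windows of H2bc18 were shared with transcripts of genes that are no members, and 0 members shared one. Of the cell type markers, Krt8 and Krt18 were present in every group, whereas the epithelial markers Epcam and Cdh1 were at or near 0 (group means of at most 0.43 CPM). The macrophage markers Adgre1, Csf1r and C1qa were near 0 too (at most 0.59 CPM). The macrophage list also held Cd68, Lyz2, Ptprc, Itgam and Cd14, whose levels are not given here. The absence of macrophage transcripts is therefore not shown. The summed fibroblast markers differed between groups: 22.4 and 25.8 CPM in rescue WT, 270 and 271 in rescue Cxcl5-/-, 29.2 to 45.2 in Hif1αOE and 148 to 170 in MycOE; Pdgfra alone was at 149 CPM in MycOE. The summed epithelial markers, were 823 and 865 CPM in rescue WT, 258 and 272 in Cxcl5-/-, 687 to 820 in Hif1αOE and 244 to 287 in MycOE. In 3D WT and the 3D libraries labelled Cxcl5-/- the fibroblast sums were 72.9 to 75.8 and 204 to 235 CPM, and the epithelial sums 839 to 1084 and 190 to 222. Their part in the histone results was not tested. In bulk RNA, fewer cells in S phase and less histone RNA per cell cannot be told apart.

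The summed histone level made up 0.277% to 1.63% of all counts in a library. It was 16330, 15715 and 16267 CPM in 2D WT and 14181, 15520 and 13816 in 2D Cxcl5-/-. It was 12804, 10701 and 11777 CPM in 3D WT, and 9414, 4524 and 5447 in the 3D libraries labelled Cxcl5-/-. All 3D libraries of either label thus lay below all 2D libraries, and all 3D libraries labelled Cxcl5-/- lay below all 3D WT libraries. Replicate 1 of the 3D libraries labelled Cxcl5-/- stood apart from the other two. In the rescue experiment the sum was 6776 and 7339 CPM in WT, and 2431 and 2607 in Cxcl5-/-. It was 11401, 15121 and 10322 CPM in Hif1αOE, and 14090, 13208 and 12070 in MycOE. Both overexpression groups lay above WT in every library, and overlapped each other. The mean fell 2.80-fold from WT to Cxcl5-/-, and was 4.88-fold higher in Hif1αOE and 5.21-fold higher in MycOE than in Cxcl5-/-. A sum over chosen genes is given without a test, and tables were scaled separately, so levels are compared only within an experiment.

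**Figure D1:**
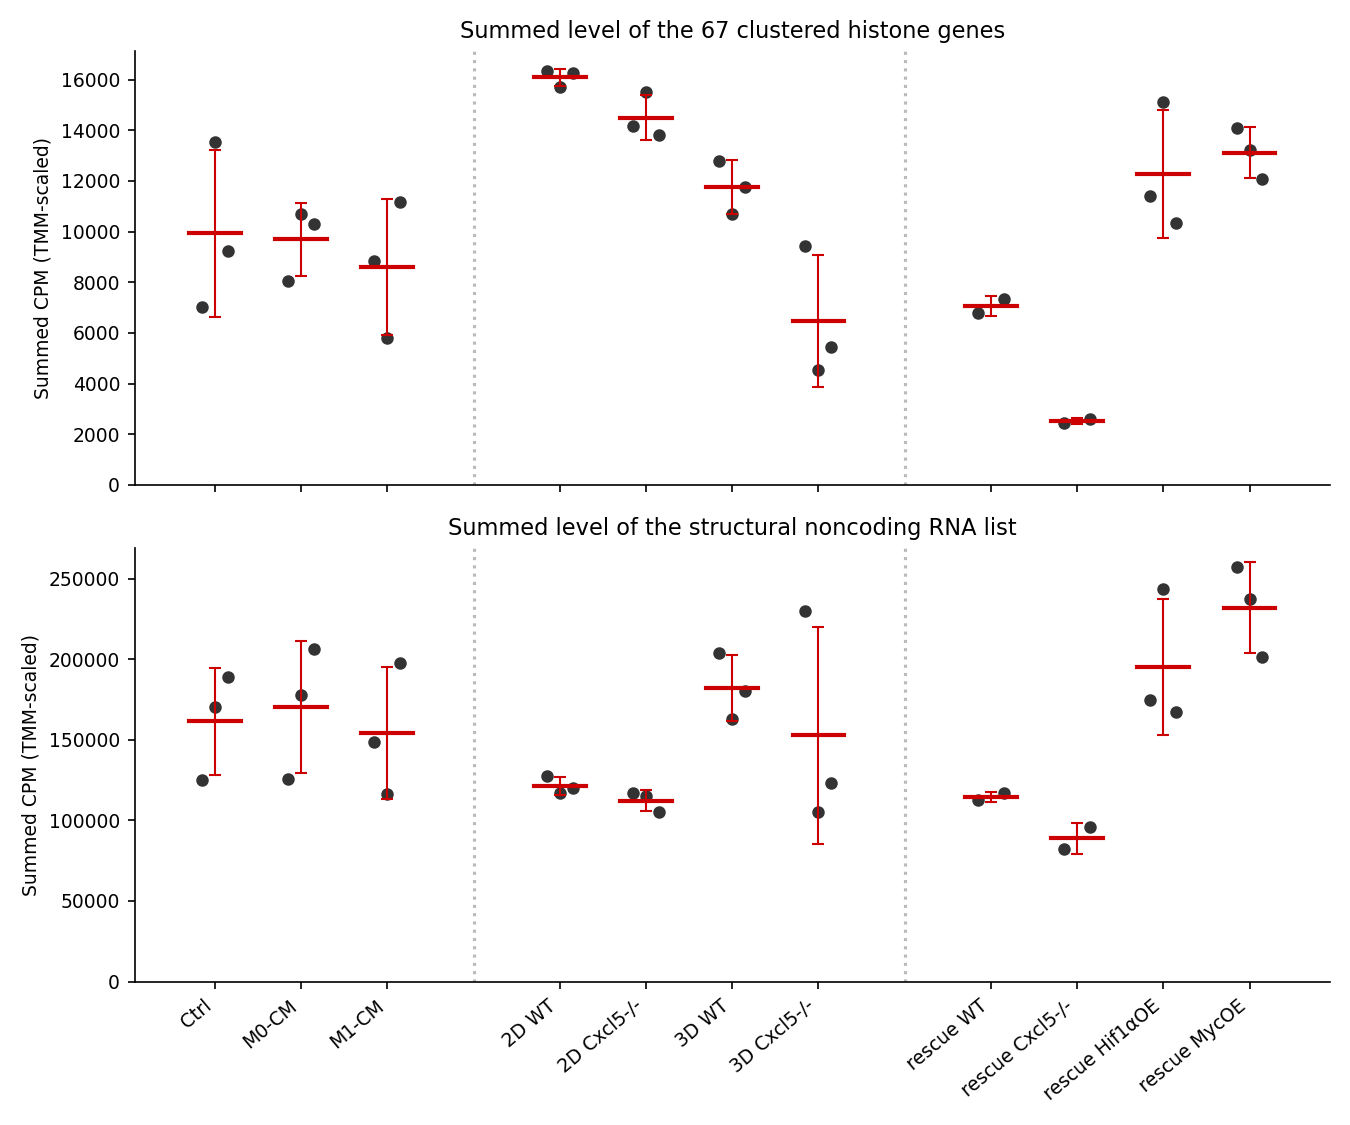
Summed level of the 67 clustered histone genes (top) and of the 194 structural noncoding RNA genes (bottom), in TMM-scaled CPM, for each library (points) with the group mean (bar) and SD (whiskers); dotted lines separate the experiments. Within the rescue experiment Cxcl5-/- had the lowest histone level, 2431 and 2607 CPM, and the library at 9414 CPM among those labelled 3D Cxcl5-/- also had the highest structural RNA level of its group.

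The structural noncoding RNA list (genes of small nuclear, small nucleolar, 7SK and similar RNAs, chosen by symbol) is given beside the histones because its sum also differed between libraries. It was 230053, 105124 and 122948 CPM in the 3D libraries labelled Cxcl5-/-, highest in the same replicate 1 in which histones were highest. It was 112460 and 116704 CPM in rescue WT and 82257 and 95743 in rescue Cxcl5-/-. It was 167193 to 243448 CPM in Hif1αOE and 201688 to 257403 in MycOE, and replicate 2 of Hif1αOE was the highest of its group in both sums. From 2D WT to 3D WT, however, this sum was higher (116703 to 127607 against 163113 to 203974 CPM) while the histone sum was lower. The part of RNA composition in the histone results was not tested.

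Whether macrophage-conditioned medium changed histone expression was asked in the first experiment. The summed level was 7032, 13534 and 9241 CPM in Ctrl, 8042, 10715 and 10311 in M0-CM, and 8838, 5812 and 11172 in M1-CM. The 3 groups overlapped. With 64 of the 67 genes tested, edgeR's quasi-likelihood test called 0 in M1-CM against Ctrl, 0 in M0-CM against Ctrl and 0 in M1-CM against M0-CM, where 0.0156%, 0.0% and 0.0156% of all genes were called higher and 0.0% lower in each. None had an unadjusted p under 0.05 in any of these, where 4.70%, 2.96% and 2.59% of all genes did, and DESeq2 also called 0, where it called 0.336%, 0.0817% and 0.0881% of all genes higher and 0.141%, 0.0182% and 0.0481% lower. The median log2 fold change of the histone genes was -0.21 for M1-CM against Ctrl, -0.03 for M0-CM against Ctrl and -0.15 for M1-CM against M0-CM, beside medians over all genes of 0.01, -0.00 and -0.01. Each of these medians changed sign when 1 library was left out, with ranges of -0.45 to 0.08, -0.23 to 0.24 and -0.43 to 0.05. The linker gene H1f3 had a log2 fold change of -0.39 ± 0.27 (SE) with M1-CM against Ctrl, adjusted p = 0.96 in edgeR. The spread within a group limits what could be called here, since the Ctrl libraries alone differed between 7032 and 13534 CPM.

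In WT cells the summed histone level was lower in spheroid than in monolayer culture, while the number of called genes depended on the settings. Of 67 genes tested, 23 fell and 2 rose in 3D WT against 2D WT, where 22.0% and 22.2% of all genes tested fell and rose (edgeR, adjusted p under 0.05). With DESeq2 size factors 14 fell, near the 18.9% of all genes, and with library totals 54 fell, where 31.4% of all genes did. Over the 67 genes the median log2 fold change was -0.45, beside 0.00 over all genes. The median over all genes was 0.40 without a filter on low counts and 0.47 with DESeq2, and the histone median then differed from it by -0.85 and -0.86. The fall was seen in 11 of 20 H2A genes, 5 of 12 H4 genes, 3 of 6 H1 genes, 3 of 17 H2B genes and 1 of 12 H3 genes. The number of genes that fell varied from 3 without 3D WT replicate 2 (18.3% of all genes fell) to 49 without replicate 1 of the 3D libraries labelled Cxcl5-/- (21.4%), and was 47 with only the groups compared in the fit (22.9%), whereas the median stayed negative in each. H1f1, a linker histone gene whose sequence is unique, was at 447, 462 and 463 CPM in 2D WT and 270, 262 and 234 in 3D WT. The groups did not overlap, and the log2 fold change was -0.84 ± 0.18 (SE, adjusted p = 0.0014 in edgeR). H1f5, another linker gene, was at 396, 361 and 382 CPM in 2D WT and 250, 198 and 208 in 3D WT, again without overlap (log2 fold change -0.80 ± 0.14, adjusted p = 0.00032 in edgeR). The H4 gene H4c2 (-0.70 ± 0.21) and the pseudogene H2ac5-ps (-0.70 ± 0.21) followed, and the much counted H4c8 fell too (-0.68 ± 0.24, adjusted p = 0.032 in edgeR). The call of each of these 3 genes was lost when 1 library was left out, 3D WT replicate 2 among others, with values of -0.57, -0.57 and -0.56 without it. H1f2 did not pass the test: it was at 438, 434 and 443 CPM in 2D WT and 458, 394 and 448 in 3D WT (-0.02 ± 0.12), and H1f4 had -0.15 ± 0.12.

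H2bc21 went the other way. In this H2B gene the stem-loop pattern was not found after the annotated stop codon. H2bc21 was at 11.1, 9.45 and 11.5 CPM in 2D WT and 24.7, 22.1 and 26.0 in 3D WT. The groups did not overlap, and the log2 fold change was 1.19 ± 0.12 (SE, adjusted p = 2.5e-06 in edgeR). The other gene that rose, the testis-type linker H1f6, was below 0.5 CPM in every library of both groups and lost its call without a filter on low counts (log2 fold change 2.15 ± 0.82).

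Deletion of Cxcl5 in 2D was accompanied by no called histone gene. In 2D Cxcl5-/- against 2D WT, edgeR called 0 of 67 genes higher and 0 lower, where 3.86% of all genes were called higher and 3.17% lower. At an unadjusted p under 0.05 there were 5, where 18.3% of all genes passed. DESeq2 called 0 higher and 3 lower, where it called 5.35% and 3.91% of all genes. With only the 2 groups in the fit, edgeR called 7 lower, where 4.67% of all genes were. Over the histone genes the median log2 fold change was -0.16. The H3 gene H3c3 was at 331, 328 and 293 CPM in 2D WT and 198, 222 and 193 in 2D Cxcl5-/-. Its groups did not overlap, but it missed the threshold (log2 fold change -0.64 ± 0.21, adjusted p = 0.09 in edgeR). H1f1 (-0.01 ± 0.17), H1f3 (0.02 ± 0.14) and H1f5 (0.04 ± 0.14) differed by less than their standard errors.

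In 3D, histone genes of all 5 classes were lower in the 3D libraries labelled Cxcl5-/- than in 3D WT. Of 67 genes, 51 fell and 0 rose, where 25.3% and 19.7% of all genes fell and rose (edgeR), and DESeq2 called 50 lower and 0 higher, where it called 20.1% and 17.0% of all genes. The median log2 fold change was -0.90, beside -0.04 over all genes. It was largest in size among the H2A (-1.09, 17 of 20 fell) and H2B genes (-1.07, 16 of 17 fell), and was -0.82 for H3 (10 of 12), -0.72 for H1 (4 of 6) and -0.57 for H4 (4 of 12). Differences between classes were not tested. Without replicate 1 of the 3D libraries labelled Cxcl5-/- the median was -1.37. Scaling to library totals gave -0.54, because all genes then had a median of 0.35; relative to all genes the histone median was -0.89 with that scaling and -0.86 with TMM.

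Among the called genes without overlap between groups and with a mean count of at least 50, H3c3, H2af-ps2, H3c15 and H2bc14 fell most. H3c3 was at 278, 216 and 224 CPM in 3D WT and 133, 63.3 and 77.0 in the 3D libraries labelled Cxcl5-/-, without overlap (log2 fold change -1.39 ± 0.21, SE, adjusted p = 0.00011 in edgeR). H2bc14, an H2B gene with 93.4% unique windows, was at 213, 183 and 211 CPM against 120, 57.4 and 70.8 (-1.29 ± 0.2, adjusted p = 0.00014 in edgeR). H3c15 had -1.32 ± 0.17. Among the most counted genes of each class, H2ac15 (-1.16 ± 0.18), H2bc12 (-1.18 ± 0.20), H2bc3 (-1.26 ± 0.18), H3c7 (-0.85 ± 0.24) and H3c6 (-0.74 ± 0.24) fell. H2ac18, the other of the 2 most counted H2A genes, has 0% unique windows, and no value is given for it here. Leaving out 1 library moved H3c7 between -1.37 and -0.59 and H3c6 between -1.26 and -0.47, with the largest size without replicate 1 of the 3D libraries labelled Cxcl5-/- and the call of both lost without replicate 2. The H4 genes H4c8 (-0.39 ± 0.24) and H4c18 (-0.61 ± 0.28) did not pass: H4c8 was at 300.1, 236 and 283 CPM in 3D WT and at 326, 138 and 159 in the 3D libraries labelled Cxcl5-/-, whose replicate 1 exceeded every WT library. Of the linker genes, H1f1 (-0.89 ± 0.18), H1f5 (-0.85 ± 0.14), H1f4 (-0.81 ± 0.12) and H1f2 (-0.63 ± 0.13) fell, and H1f3 did not pass (-0.25 ± 0.14). H2bc21, which was higher in 3D than in 2D, was lower here (24.7, 22.1 and 26.0 against 19.9, 16.4 and 18.2 CPM, -0.42 ± 0.12).

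Among the libraries labelled Cxcl5-/-, 59 of 67 genes were lower and 5 higher in 3D than in 2D, where 28.2% and 28.7% of all genes were lower and higher (edgeR). The median log2 fold change was -1.17, beside 0.11 over all genes. All 12 H4 genes fell. Among the called genes without overlap between groups and with a mean count of at least 50, H1f1 fell most. It went from 477, 462 and 423 CPM to 192, 99.6 and 121 (-1.72 ± 0.18, SE, adjusted p = 2.3e-06 in edgeR). H1f5 (-1.68 ± 0.14), H2ac4 (-1.64 ± 0.21) and H2bc3 (-1.56 ± 0.19) followed. The 5 higher genes were H2bc21 (0.86 ± 0.12), H1f6 and H2ac1, which are near 0, and H2bc18 and H3c13, which have no unique window. Comparisons that share the 2D Cxcl5-/- or the 3D WT libraries are not independent of each other.

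The difference between the labelled genotypes was tested against culture directly. In the interaction of genotype and culture, 32 of 67 histone genes had a more negative difference of the libraries labelled Cxcl5-/- from WT in 3D than in 2D and 0 a more positive one, where 16.1% and 11.1% of all genes did (edgeR). DESeq2 called 36 and 2, where 16.7% and 12.4% of all genes were called. The median difference was -0.76 on the log2 scale, beside -0.05 over all genes. It ran from -1.18 to -0.53 when 1 library was left out. The histone median differed from that of all genes by -0.71, by -0.47 without a filter on low counts and by -0.46 with DESeq2. H4c14 (-1.16 ± 0.25, SE, adjusted p = 0.0043 in edgeR), an H4 gene of the chromosome 3 cluster with fully unique sequence, led, followed by H2ac8 (-1.13 ± 0.25), H2bc3 (-1.11 ± 0.26) and H2ac4 (-1.11 ± 0.30). H4c14 was at 131, 118 and 143 CPM in 2D WT and 115, 145 and 123 in 2D Cxcl5-/-, which overlap. It was at 145, 139 and 159 CPM in 3D WT and 88.7, 47.5 and 56.4 in the 3D libraries labelled Cxcl5-/-, which do not. The number of more negative genes was 16 with library totals, where 6.36% of all genes were more negative, 59 without replicate 1 of the 3D libraries labelled Cxcl5-/- (20.04%) and 21 without 2D Cxcl5-/- replicate 1 (10.4%). In the fit to all libraries, 13 of 20 H2A, 12 of 17 H2B, 3 of 12 H3 and 1 of 12 H4 genes were called. Differences between classes were not tested.

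**Figure D2:**
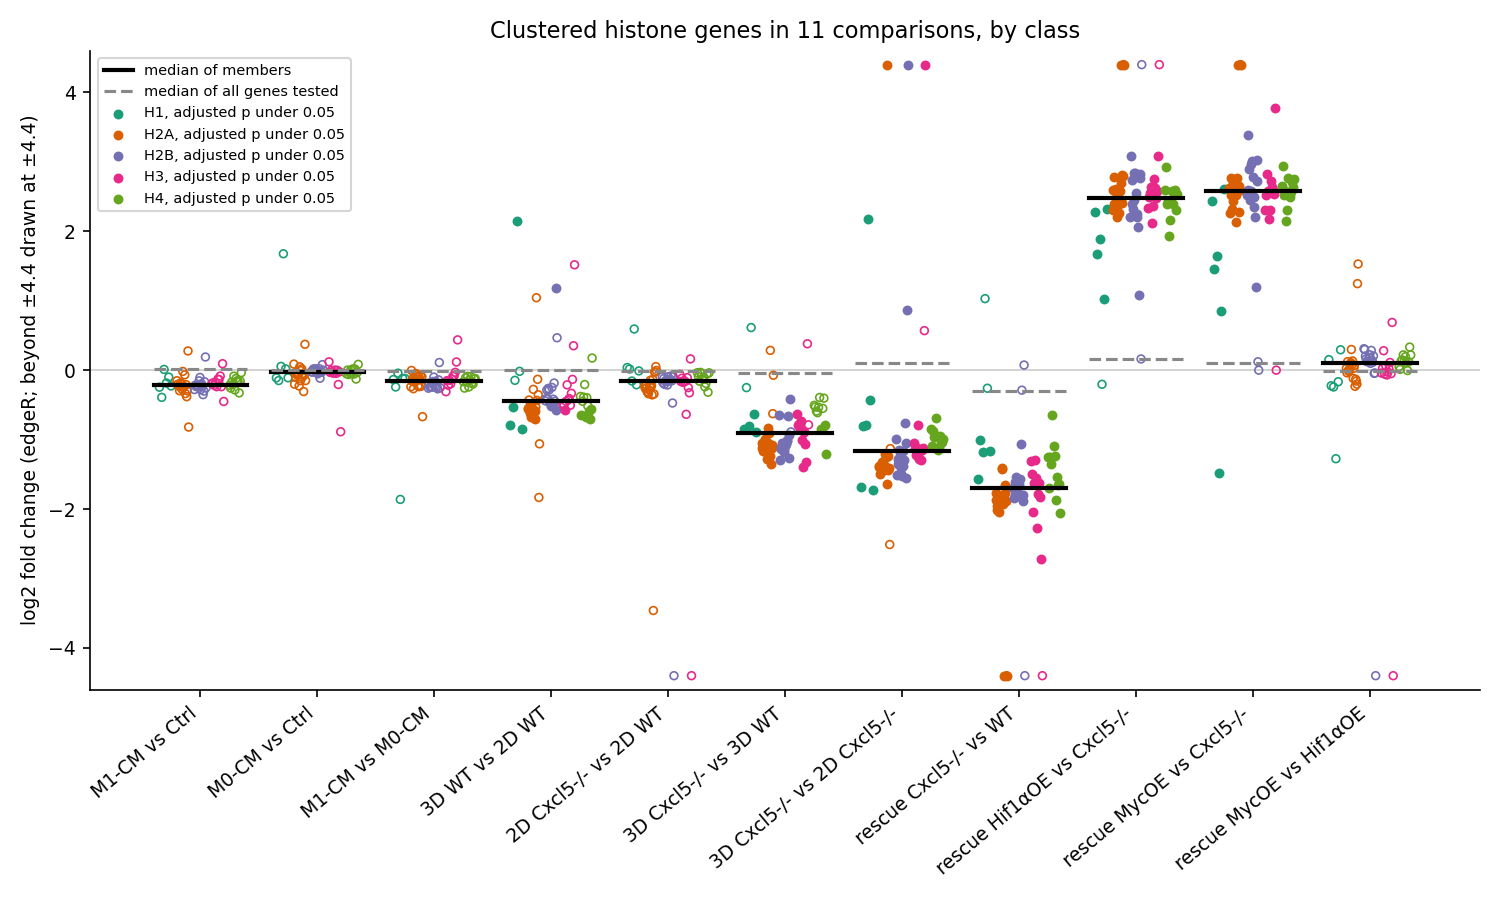
Log2 fold change (edgeR, vertical axis) of every clustered histone gene tested in 11 comparisons, coloured by class; filled points passed adjusted p under 0.05, open points did not, and values beyond 4.4 are drawn at that limit. The solid bar is the median of the histone genes and the dashed bar that of all genes tested: -0.90 against -0.04 for the 3D libraries labelled Cxcl5-/- against 3D WT, and 2.57 against 0.11 for MycOE against Cxcl5-/-.

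The rescue experiment compared Cxcl5-/- with WT in 3D again, with 2 libraries each. Of 67 genes tested, 60 fell and 0 rose in Cxcl5-/-, where 24.3% and 17.6% of all genes fell and rose (edgeR), and DESeq2 called 61 lower, where it called 27.3% of all genes lower. Their median log2 fold change was -1.69, beside -0.30 over all genes. The median over all genes depended on the filter: it was -1.18 with no filter, -1.31 with DESeq2 and -0.01 with at least 10 counts in every library, and the histone median differed from it by -0.49, -0.48 and -1.73, against -1.40 with the filter used here. All 12 H4, 11 of 12 H3, 19 of 20 H2A, 14 of 17 H2B and 4 of 6 H1 genes fell. H3c3 was at 110 and 127 CPM in WT and 24.0 and 24.9 in Cxcl5-/- (-2.27 ± 0.18, SE, adjusted p = 3.5e-06 in edgeR). H4c14 was at 99.8 and 93.2 CPM in WT and 20.6 and 25.5 in Cxcl5-/- (-2.06 ± 0.21, adjusted p = 1.9e-05 in edgeR). Neither gene overlapped between groups. H2ac15 (-1.96 ± 0.17), H2bc3 (-1.89 ± 0.20), H2bc12 (-1.68 ± 0.18), H3c7 (-1.63 ± 0.17) and H4c8 (-1.10 ± 0.13) fell as well. The copies H2ac18 (-9.14 ± 3.00) and H3c14 (-2.71 ± 0.73) also passed, but H2ac18 had 10 and 8 counts in Cxcl5-/- and 1295 and 8436 in WT, had no adjusted p in DESeq2, and missed the threshold in edgeR without a filter on low counts (adjusted p = 0.081). H3c14 was at -0.99 without WT replicate 2 (adjusted p = 0.19 in edgeR), and lost its call without either Cxcl5-/- library too.

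The 7 genes that did not pass were H1f2, H2bc4, H2bc21, the near-absent H1f6, and the copies H2ac19, H2bc18 and H3c13. H1f2, H2bc4 and H2bc21 are known to give polyadenylated transcripts as well, and stood on a list of such genes that was drawn up with earlier results of these data known. H1f2 was at 237 and 255 CPM in WT and 192 and 220 in Cxcl5-/- (-0.26 ± 0.17, SE). H2bc4 was at 157 and 166 CPM in WT and 130 and 135 in Cxcl5-/- (-0.29 ± 0.17). H2bc21 was at 19 and 16.2 CPM in WT and 18.5 and 18.5 in Cxcl5-/- (0.07 ± 0.11). For the first 2 genes the groups did not overlap but the difference missed the threshold, and for H2bc21 they overlapped. H2bc23 and H2bc24, which like H2bc4 and H2bc21 have at least 50 annotated bases after the stop codon but no match to the stem-loop pattern, fell. The share of H1 in all histone counts was 16.5% ± 0.42 (SD, n = 2) in WT and 24.2% ± 0.18 (n = 2) in Cxcl5-/-, and that of H2A was 18.9% ± 1.34 and 12.8% ± 0.87.

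Overexpression of mutant Hif1α or of Myc in Cxcl5-/- cells was accompanied by higher levels of nearly every histone gene. With Hif1αOE against Cxcl5-/-, 62 of 67 genes rose and 0 fell, where 20.5% and 15.0% of all genes rose and fell (edgeR). Their median log2 fold change was 2.48, beside 0.16 over all genes. With MycOE against Cxcl5-/-, 62 rose and 1, H1f6, fell, where 21.6% and 18.0% of all genes rose and fell, and the median was 2.57, beside 0.11. DESeq2 called 62 higher in each, where it called 22.5% and 23.7% of all genes higher. The fall of H1f6, which is near 0, was lost without a filter on low counts. H2bc14 was at 17.3 and 19.5 CPM in Cxcl5-/-, 153, 200 and 116 in Hif1αOE and 202, 189 and 186 in MycOE, so that neither overexpression group overlapped Cxcl5-/-. Its log2 fold change was 3.09 ± 0.21 (SE, adjusted p = 1.2e-06 in edgeR) with Hif1αOE and 3.38 ± 0.21 (adjusted p = 5.5e-07 in edgeR) with MycOE. H4c12, an H4 gene, was at 32.1 and 36.1 CPM in Cxcl5-/-, 240, 305 and 232 in Hif1αOE and 269, 265 and 250 in MycOE, again apart from Cxcl5-/-. H4c12 rose by 2.93 ± 0.13 and 2.94 ± 0.13 on the log2 scale.

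Of the linker genes, H1f2, H1f3, H1f4 and H1f5 rose by less than the median of every core class in both comparisons, and so did H1f1 with Hif1αOE, whereas H1f1 with MycOE lay within the range of those medians; this is a description without a test. H1f5 rose by 2.28 ± 0.18 (SE, log2 scale) with Hif1αOE and 2.44 ± 0.18 with MycOE, H1f1 by 2.32 ± 0.16 and 2.61 ± 0.17, H1f4 by 1.89 ± 0.14 and 1.65 ± 0.14, H1f3 by 1.67 ± 0.12 and 1.45 ± 0.12, and H1f2 by 1.02 ± 0.16 and 0.86 ± 0.16. The median over H1 genes, the near-absent H1f6 included, was 1.78 with Hif1αOE and 1.55 with MycOE, against 2.55 and 2.60 for H2A, 2.45 and 2.57 for H2B, 2.57 and 2.56 for H3, and 2.49 and 2.61 for H4. H2bc4 rose by 1.09 ± 0.16 and 1.2 ± 0.16. H2bc21 did not pass in either (0.16 ± 0.10 and 0.12 ± 0.10), and stayed between 18.5 and 21.5 CPM over the 8 libraries. The 2 comparisons share the Cxcl5-/- libraries, which limits what their likeness shows.

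Compared directly, MycOE and Hif1αOE differed in no called histone gene: edgeR called 0 of 67 higher and 0 lower, where 9.54% of all genes were called higher and 9.73% lower. At an unadjusted p under 0.05 there were 6, where 30.4% of all genes passed. DESeq2 called 1 higher and 0 lower, where it called 11.3% and 11.1% of all genes. Their median log2 fold change was 0.10, beside -0.01 over all genes. Without Hif1αOE replicate 2, the library with the highest sum, 25 genes were called higher in MycOE, where 11.3% of all genes were. A few genes were also called with a replicate block or with library totals, and their numbers are given under the processing below. Of the linker genes, H1f1 had 0.29 ± 0.13 (SE) and H1f4 -0.24 ± 0.12, neither past the threshold. Missing the threshold does not show that the 2 groups had equal levels.

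**Figure D3:**
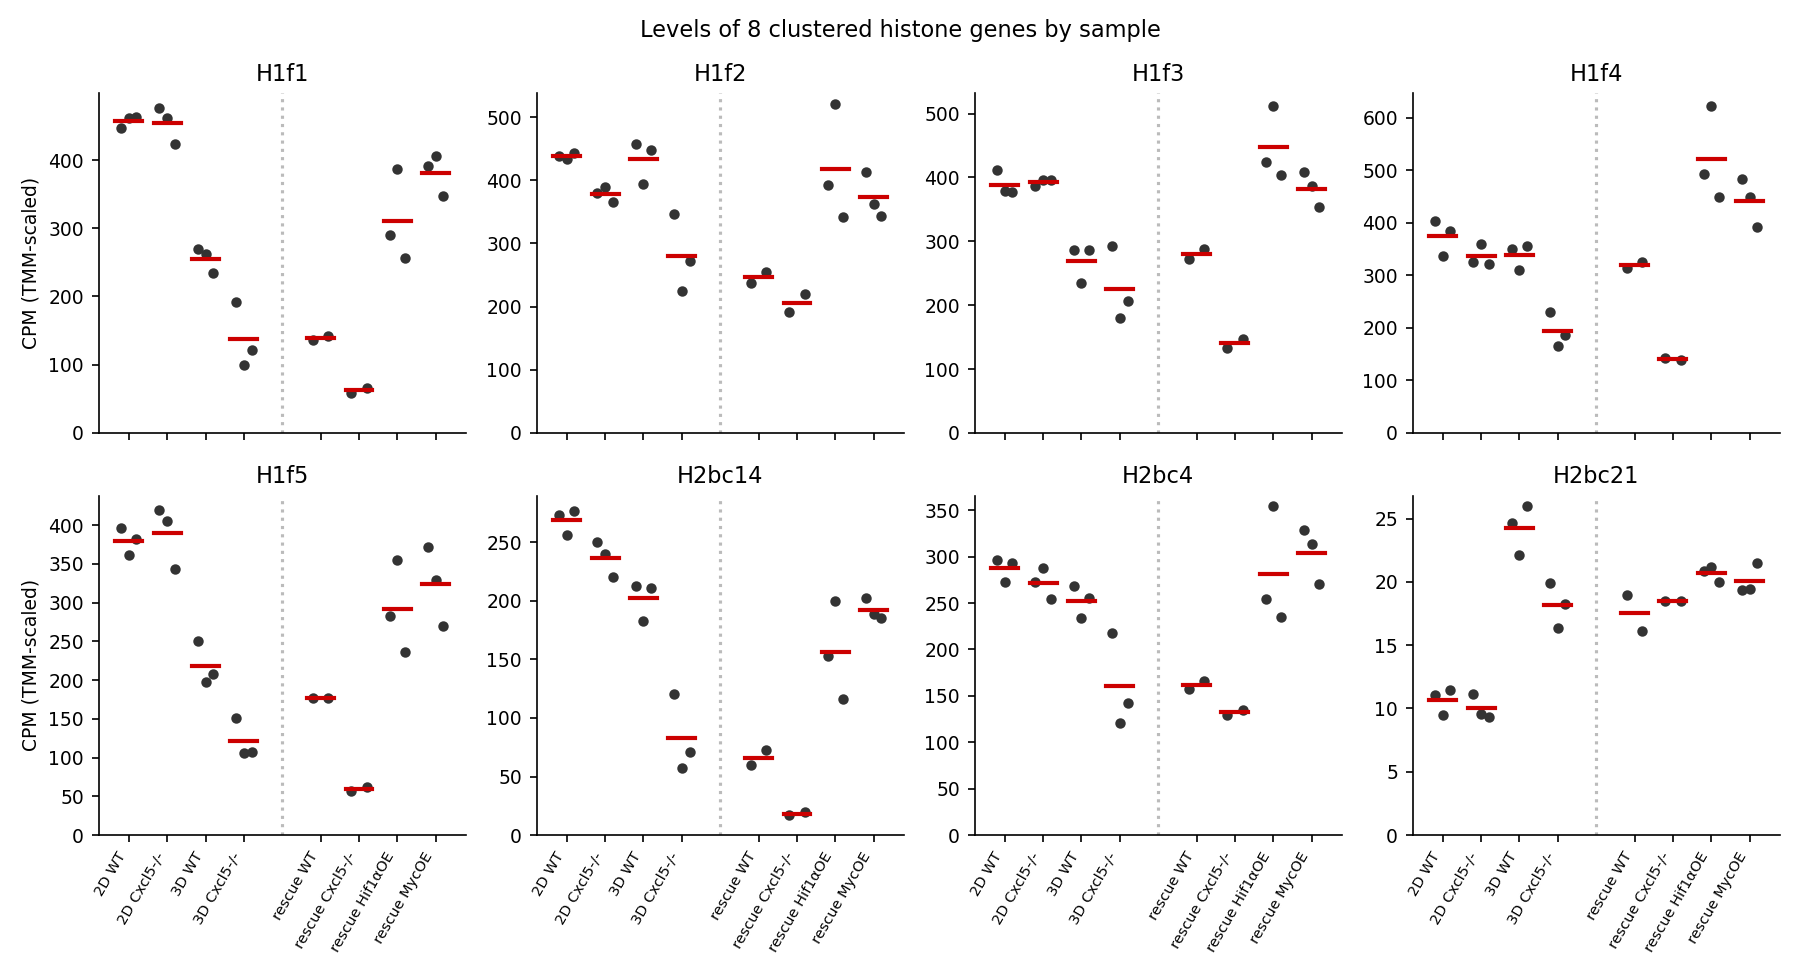
Levels of 8 clustered histone genes (TMM-scaled CPM, each panel with its own linear axis from 0) in every library of the 2D and 3D and of the rescue experiment, with the group mean as a bar. H1f1, H1f5 and H2bc14 had their lowest means in the 3D groups labelled Cxcl5-/- of both experiments, whereas H2bc21 was higher in 3D than in 2D and lay between 16.2 and 21.5 CPM throughout the rescue experiment.

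Compared per length, the H4 gene H4c18 (1261 CPM per kb of exon), H4c6 (1139), H2bc12 (1093) and H2bc3 (1027) were the highest in 2D WT. Only 19.3% of the windows of H4c18 and 29.2% of those of H2bc12 are unique, so this order can depend on how shared reads were split. The linker genes H1f1 (617) and H1f3 (52.4) lay lower, H2bc21 was at 4.07, and H1f6 and H2ac1 were below 0.2. H1f3 is annotated with 7425 bases of exon, which lowers its value per length.

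The machinery that makes histone messages was followed in the same comparisons. The list of 16 processing genes had 15 tested. Slbp, the gene of the stem-loop binding protein, fell in 3D WT against 2D WT (-0.99 ± 0.10, SE, log2 scale) and in the 3D libraries labelled Cxcl5-/- against 3D WT (-0.75 ± 0.10). It fell in Cxcl5-/- against WT in the rescue experiment (-0.89 ± 0.10) and rose with Hif1αOE (1.02 ± 0.10) and MycOE (1.01 ± 0.10). The U7 component gene Lsm11 did the same (-0.41 ± 0.12, -0.78 ± 0.12, -0.99 ± 0.17, 0.73 ± 0.16 and 0.93 ± 0.16), but Lsm11 lost its first call without 2D WT replicate 1 (-0.33), among others, and that with Hif1αOE without Cxcl5-/- replicate 1 (0.57). Lsm10 passed only with Hif1αOE (0.84 ± 0.14) and MycOE (2.38 ± 0.15) among these 5 comparisons, and was higher in MycOE than in Hif1αOE (1.54 ± 0.12). Npat, the coactivator gene, fell in 3D WT against 2D WT (-0.31 ± 0.08), had -0.33 ± 0.08 in the 3D libraries labelled Cxcl5-/- against 3D WT, where the sign turned with library totals (0.06), and did not pass in the rescue experiment (0.09 ± 0.11, 0.05 ± 0.10 and 0.05 ± 0.10). Casp8ap2, a partner of NPAT in these bodies, fell in 3D WT against 2D WT (-1.36 ± 0.10), and Eri1, an exonuclease that trims histone mRNA ends, fell there too (-0.61 ± 0.07). Zfp473, a U7-associated factor, fell in the 3D libraries labelled Cxcl5-/- (-1.03 ± 0.25). Of the 15, 11 fell and 0 rose in 3D WT against 2D WT, 9 fell and 1 rose in the 3D libraries labelled Cxcl5-/- against 3D WT, 4 fell and 1 rose in rescue Cxcl5-/- against WT, and 8 rose with Hif1αOE and 8 with MycOE, where 0 and 1 fell. Of all genes, 22.0%, 25.3% and 24.3% fell in the first 3 of these comparisons, 22.2%, 19.7% and 17.6% rose there, and 20.5% and 21.6% rose in the last 2, so that the 4 of 15 in rescue Cxcl5-/- lie near the share of all genes.

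The S phase list, 27 genes of DNA replication and G1/S control, moved in the same directions, beside the same shares of all genes. All 27 fell in 3D WT against 2D WT with a median log2 fold change of -1.03, larger in size than the histone median of -0.45. In the 3D libraries labelled Cxcl5-/- against 3D WT 24 fell, with a median of -0.77. In rescue Cxcl5-/- against WT 22 fell, with a median of -0.92, smaller in size than the histone median of -1.69. With Hif1αOE 25 rose and with MycOE 24 rose, with medians of 1.00 and 1.22 beside histone medians of 2.48 and 2.57. The replicative helicase gene Mcm2 had -1.30 ± 0.11, -0.84 ± 0.11, -0.92 ± 0.09, 1.00 ± 0.08 and 1.31 ± 0.08 in these 5 comparisons, and the sliding clamp gene Pcna -1.15 ± 0.10, -0.75 ± 0.10, -1.23 ± 0.12, 0.82 ± 0.11 and 1.22 ± 0.11. E2f1, a G1/S transcription factor gene, was an exception: it had 0.30 ± 0.14 in the 3D libraries labelled Cxcl5-/-, which did not pass, and fell with Hif1αOE (-0.58 ± 0.14), a call that E2f1 lost without Cxcl5-/- replicate 2 (-0.38). Its fall in 3D WT against 2D WT (-0.40 ± 0.14) was lost with DESeq2 (-0.34). All 10 mitosis genes fell in the first 3 of these comparisons and rose in the other two. Expressed as a ratio, the summed histone level was 3.68 ± 0.07 times the summed S phase list in 2D WT and 5.45 ± 0.23 times in 3D WT (SD, n = 3 each). The ratio was 4.13 ± 0.20 in rescue WT and 2.94 ± 0.14 in rescue Cxcl5-/- (n = 2 each), and 7.0 ± 0.93 in Hif1αOE and 6.50 ± 0.62 in MycOE (n = 3 each). The 3D WT libraries lay above all 2D WT libraries in this ratio, and the rescue groups other than the overexpression pair did not overlap. In the 3D libraries labelled Cxcl5-/- it was 7.85, 4.11 and 4.44, which spans the 3D WT values.

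**Figure D4:**
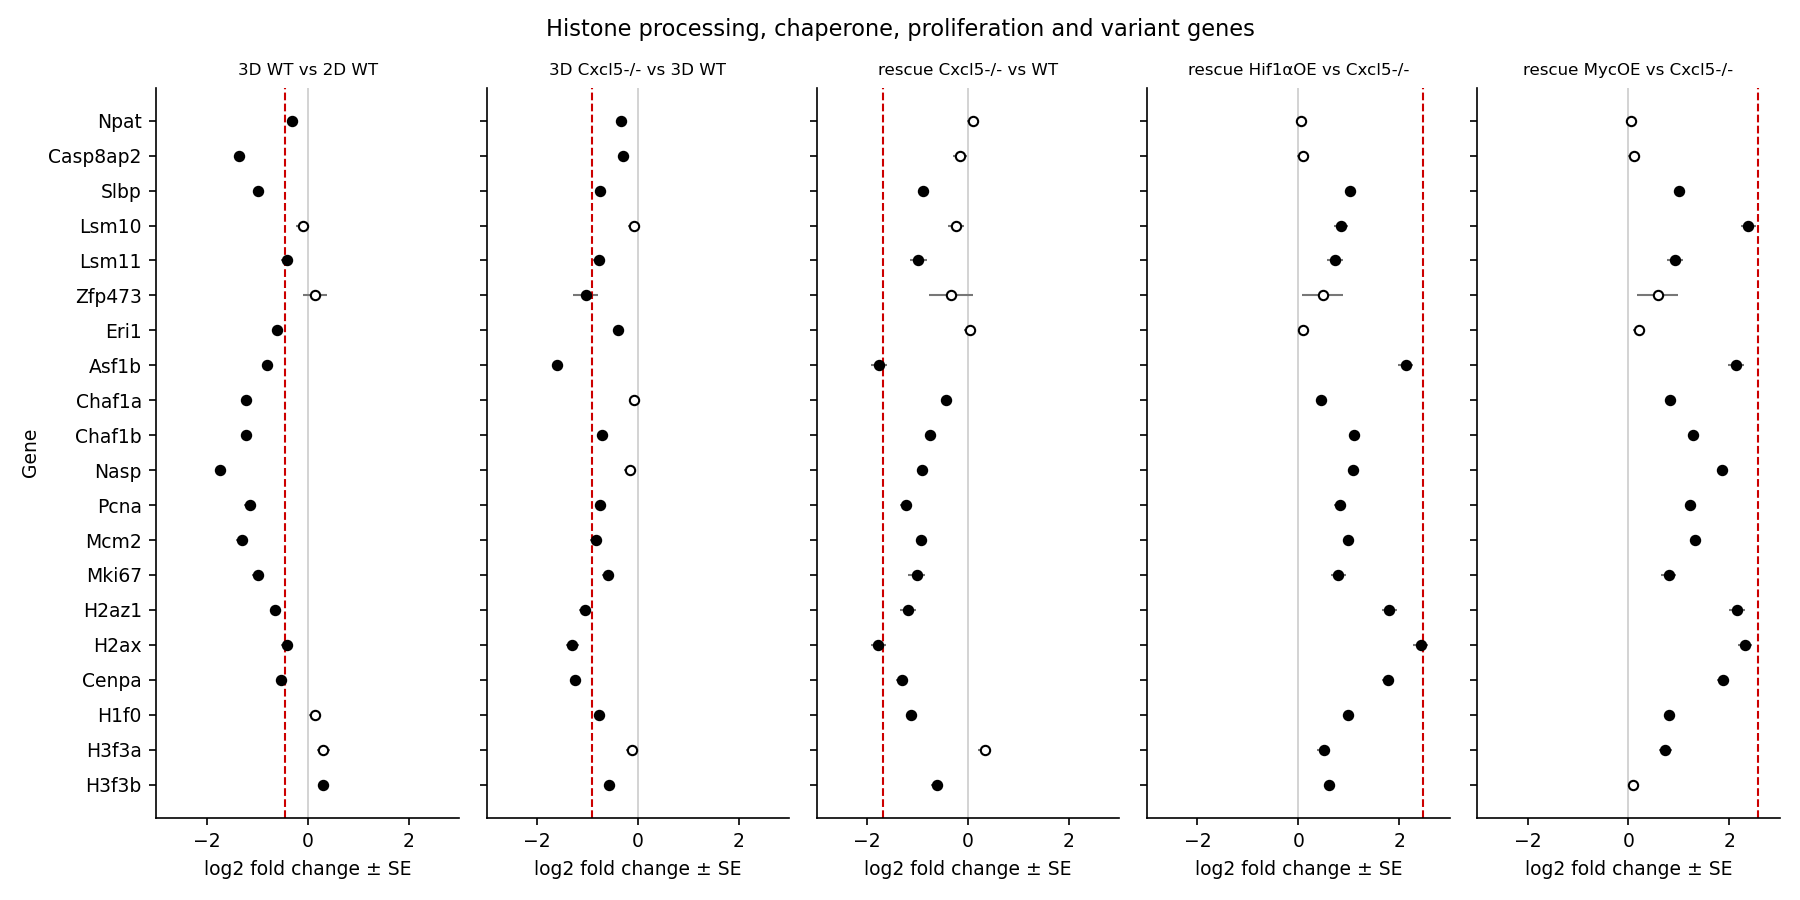
Log2 fold change with standard error (edgeR) of 20 genes of histone processing, histone chaperones, proliferation and histone variants in 5 comparisons; filled points passed adjusted p under 0.05, open points did not, and the dashed line is the median of the clustered histone genes. Npat lay near 0 in all 3 rescue comparisons, while Asf1b and H2ax lay near the histone median there.

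Chaperones bring new histones to DNA. Asf1b, the chaperone paralogue linked to proliferation, fell in the 3D libraries labelled Cxcl5-/- (-1.60 ± 0.10, SE, log2 scale) and in rescue Cxcl5-/- (-1.77 ± 0.16), and rose with Hif1αOE (2.13 ± 0.15) and MycOE (2.13 ± 0.15). Chaf1b, a CAF-1 subunit gene, had -0.70 ± 0.09, -0.75 ± 0.10, 1.10 ± 0.10 and 1.27 ± 0.10, all past the threshold. Nasp, which encodes a chaperone of H3 and H4, fell between cultures of WT cells (-1.74 ± 0.11), did not pass in the 3D libraries labelled Cxcl5-/- (-0.16 ± 0.10), fell in rescue Cxcl5-/- (-0.91 ± 0.11), and rose more with MycOE (1.86 ± 0.11) than with Hif1αOE (1.09 ± 0.10), a difference that passed on its own (0.77 ± 0.09). Of the 20 chaperone genes, 9 fell and 3 rose in the 3D libraries labelled Cxcl5-/-, 9 fell and 6 rose in rescue Cxcl5-/-, and 12 rose with each overexpression. Of all genes, 25.3% fell and 19.7% rose, 24.3% fell and 17.6% rose, and 20.5% and 21.6% rose in these comparisons.

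Histone variant genes, which lie outside the clusters and are polyadenylated, in the case of H2ax only in part, divided. Of 11 tested, 7 fell in the 3D libraries labelled Cxcl5-/- and 7 in rescue Cxcl5-/-, and 9 rose with Hif1αOE and 8 with MycOE, where 25.3% and 24.3% of all genes fell and 20.5% and 21.6% rose. H2ax, whose transcript can end either in a stem-loop or in a poly(A) tail, fell by 1.30 ± 0.13 and by 1.78 ± 0.15 on the log2 scale in these 2 comparisons and rose by 2.43 ± 0.15 and 2.31 ± 0.14 with overexpression. H2az1 (H2A.Z) and Cenpa, the centromeric H3, did likewise (Cenpa -1.24 ± 0.09, -1.31 ± 0.12, 1.78 ± 0.11 and 1.87 ± 0.11). The replication-independent H3.3 gene H3f3a did not pass in either of them (-0.12 ± 0.12 and 0.33 ± 0.14), while its other gene, H3f3b, fell (-0.58 ± 0.08 and -0.62 ± 0.11). The replacement linker gene H1f0 fell in both (-0.77 ± 0.11 and -1.14 ± 0.09).

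Transcripts of the overexpressed genes were read for the labels. Myc was at 49.3 and 46.1 CPM in rescue WT, 22.3 and 20 in rescue Cxcl5-/- and 548, 525 and 397 in MycOE. Hif1a was at 304 and 324 CPM in rescue WT, 144 and 133 in rescue Cxcl5-/-, 258, 296 and 243 in Hif1αOE, and also 241, 271 and 262 in MycOE. Every Hif1αOE library thus lay above Cxcl5-/- but below WT. Hif1a and Myc were lower in the 3D libraries labelled Cxcl5-/- than in 3D WT (-1.21 ± 0.10 and -1.75 ± 0.12, SE, log2 scale), as were the histones.

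Among the 10 genes whose log2 level was most like the summed histone level over the 12 libraries of the 2D and 3D experiment, of 14381 compared, were Gm20628 (Pearson r = 0.994), Rplp1 (0.993), Cox6b1 (0.991), Nop10 (0.991), Rpl10a (0.990), Mrps14 (0.989), Rpl10a-ps1 (0.988), Lgals1 (0.987) and Cox7a2 (0.987). These correlations are a description over 12 libraries in 4 groups. Of the 27 S phase genes, 26 had r from 0.705 to 0.951, with E2f1 at -0.192, and none was among the 10, which include genes of ribosomal proteins and of respiratory chain subunits, with 499 to 3258 bases of exon. Short genes were therefore described beside the histones, a step chosen after the data were seen. Other protein-coding genes with at most 1000 bases of exon had a median log2 fold change of -0.31 in the 3D libraries labelled Cxcl5-/- against 3D WT (389 genes), beside -0.09 for longer ones. It was -0.57 in rescue Cxcl5-/- against WT (487 genes), beside -0.26, and 0.88 with Hif1αOE and 0.83 with MycOE, beside 0.20 and 0.15. By median, short genes thus moved in the direction of the histones in these 4 comparisons. The histone medians of -0.90, -1.69, 2.48 and 2.57 were larger in size. In the first 2, 32.9% and 27.3% of short genes were called lower, beside 32.1% and 29.2% of longer ones. In the last 2, 36.8% and 35.5% were called higher, beside 26.1% and 26.5%. The medians of short and longer genes were -0.35 and -0.11 in the interaction. For 3D against 2D in libraries labelled Cxcl5-/- they were -0.11 and -0.02. In 3D WT against 2D WT short genes had 0.04 against the histone median of -0.45. The part of transcript length in the histone results was not tested.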

How the data were processed

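Ribosomal RNA-depleted, stranded total RNA was sequenced as read pairs by the authors, who aligned it with HISAT2 to GRCm38 and counted genes with StringTie; the deposited values are raw counts per gene, and how reads shared by near-identical copies were assigned is not given in the sources used here. The members and all gene lists were chosen with earlier results of these data known. In each of the 3 tables edgeR 4.0.16 (R 4.3.3) was run on all genes: filterByExpr by group, TMM scaling, the quasi-likelihood F test fitted to all groups of a table, and p-values adjusted by Benjamini-Hochberg over the genes tested (19207, 21367 and 28730), with calls at an adjusted p under 0.05. SE is the size of the log2 fold change divided by the square root of F. Library totals were 43875429 to 78498230, 46973008 to 72361685 and 41542533 to 64872036 counts, and no 2 libraries held identical counts. Levels are CPM from TMM-scaled library sizes; similarity used log2 of CPM plus 0.5. Named were, in each comparison, up to 4 higher and 4 lower called members with the largest change, no overlap between groups and a mean count of at least 50, the 2 most counted members per class, all H1 genes and fixed regulators; the overlap criterion could not be applied to the interaction. H2bc4, H2bc23, H2bc24 and the copies H2ac19, H2bc18 and H3c13, outside this rule, were singled out after their values were seen. The copies H2ac18 and H3c14 were named by the rule, H3c14 in the rescue experiment only. The 5 copies were grouped after their values were seen. Some other printed values, such as those of H3c3 in 2D Cxcl5-/- against 2D WT, are also outside the rule. Groups came from the deposited sample labels. Alternatives were other scalings, count filters, a replicate block, DESeq2 1.42.0, only the groups compared, a log2 fold change above 1 and leaving out each library. The fitting was tested on simulated counts. Of the genes most like the summed histone level, 1 is not reported here.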

Additional observations from a re-analysis of the deposited data

Results flagged for a closer look

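The difference between libraries labelled Cxcl5-/- and WT differed between cultures for part of the clustered histone genes. By the interaction test of edgeR, 32 of 67 genes had a more negative difference in 3D than in 2D, and 0 had a more positive one, where 16.1% and 11.1% of all genes did. DESeq2 called 36 and 2, where 16.7% and 12.4% of all genes were called. With library totals 16 were more negative, where 6.36% of all genes were. The 4 named genes with the largest differences on the log2 scale were H4c14 (-1.16), H2ac8 (-1.13), H2bc3 (-1.11) and H2ac4 (-1.11). The 3D side of this difference rests on the 3D libraries labelled Cxcl5-/-, in which the Cxcl5 transcript was higher than in 3D WT.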

How the results depend on the processing

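Signs were followed for the called values of the genes named by the rule, not for values that missed the test. Among these no histone gene changed sign under the alternative settings, and 4 values of other genes did, all with library totals: Npat (0.064), Casp8ap2 (0.088) and Ccne1 (0.093) in the 3D comparison of genotypes and Npat in the interaction (0.051). Of 92 called histone values, 15 lost their call when some library was left out and 8 under some other setting; of 152 called values of other genes, 18 and 25 did. Library totals move the median of all genes in that comparison from -0.04 to 0.35, and the histone medians became -0.54 there, -0.45 in the interaction, 2.24 with Hif1αOE and 2.23 with MycOE; the summed levels became 10151 CPM in 3D WT, 7131 in the 3D libraries labelled Cxcl5-/-, 7733 in rescue WT, 2850 in rescue Cxcl5-/-, 11781 in Hif1αOE and 11729 in MycOE, so that MycOE no longer exceeded Hif1αOE. For 3D WT against 2D WT, lower genes numbered 54 with library totals, 14 with DESeq2 size factors, 47 with only the groups compared (31.4%, 18.9% and 22.9% of all genes) and 0 above a log2 fold change of 1 (4.72%), and higher genes 1 with library totals, without a filter, with at least 10 counts everywhere and with only the groups compared (16.7%, 12.3%, 24.2% and 24.5%). For 2D Cxcl5-/- against WT, lower genes numbered 1 with library totals, 3 with DESeq2 and 7 with only the groups compared (2.48%, 3.91% and 4.67%). Above a log2 fold change of 1, 31 were lower in the 3D comparison of genotypes and 10 in the interaction (7.84% and 5.04%), where library totals left 16 (6.36%) and DESeq2 called 2 higher (12.4%). For 3D against 2D in libraries labelled Cxcl5-/-, higher genes numbered 1 with at least 10 counts everywhere and 2 with only the groups compared (34.3% and 31.02%). For MycOE against Hif1αOE, higher genes numbered 1 with TMM factors computed without histones and structural RNA, with at least 10 counts everywhere and with DESeq2 (10.2%, 17.9% and 11.3%), and lower genes 2 with library totals and 1 with at least 10 counts everywhere (12.2% and 17.5%); without a filter, 0 were lower in MycOE against Cxcl5-/- (8.73%). In the 22 members with mostly unique sequence, a choice made after seeing the data, the median of rescue Cxcl5-/- against WT was -1.48. The causes were not tested.

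The mean correlation of deviations of same-numbered libraries was 0.07, 0.04 and 0.01 in the 3 tables. Single pairs ran from -0.36 to 0.53, from -0.20 to 0.30 and from -0.06 to 0.16. Libraries with different numbers were not compared in this way, so these values do not decide whether the numbers pair libraries. With a replicate block, 33 genes were lower and 1 higher in 3D WT against 2D WT (22.4% and 22.3% of all genes). In the same setting 5 were higher and 2 lower in MycOE against Hif1αOE (10.3% and 9.98%), and 37 were more negative in the interaction (16.8%). Percentages in parentheses are shares of all genes in the same fit. Leaving out each library gave 1 to 3 higher and 3 to 49 lower genes in 3D WT against 2D WT (19.7% to 23.99% and 17.0% to 22.1% of all genes). It gave 0 to 1 lower in 2D Cxcl5-/- against WT (1.78% to 3.28%) and medians of -1.37 to -0.77 in the 3D comparison of genotypes. For 3D against 2D in libraries labelled Cxcl5-/- it gave 2 to 5 higher genes (23.5% to 27.6%) with medians of -1.61 to -0.99. It gave 21 to 59 more negative genes (10.4% to 20.04%) and medians of -1.18 to -0.53 in the interaction, and medians of 2.28 to 2.58 with Hif1αOE. For MycOE against Hif1αOE it gave 0 to 25 higher genes (7.23% to 11.3%) with medians of -0.037 to 0.29. Where 1 library of a pair is left, it is assumed to vary like the other groups. The fit with only the groups compared was not run for the interaction.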
